A study of Rattus norvegicus with 8 samples.

Results

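Lymphocytes leave lymphoid tissue and enter the blood under the control of a small set of receptors and transcription factors, and 7 such genes were followed here in whole blood of hypertensive rats, namely S1pr1, S1pr4, S1pr5, Klf2, Foxo1, Ccr7 and Il7r. The genes were taken by symbol from the gene counts, which list 17446 genes, and 7 of the 7 were present. They were selected on measured values, with earlier results of the same libraries in view, above all the lower S1pr1 after CMG in the AngII model, so their levels and fold changes are given as a description and support nothing by themselves. All 7 were kept by the filter on low counts in every comparison.

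Whole blood RNA of male wild-type Wistar rats, 12 to 14 weeks of age at the start, was sequenced in 8 libraries that form 4 groups of 2. In the AngII model, angiotensin II was infused at 0.4 mg/kg/day by an osmotic minipump with a stated duration of 4 weeks, and blood was drawn at week 1, before any Chios mastic gum (CMG), a tree resin, and at week 5, when CMG had been given by daily gavage at 220 mg/kg for 4 weeks. In the DOCA–HS model, deoxycorticosterone acetate (DOCA) at 100 mg/kg once a week was combined with drinking water of 0.9% NaCl and 1% KCl, with blood drawn at week 3, ahead of CMG, and at week 7, when the same CMG dose had been given for 4 weeks. Each after CMG group was thus also sampled 4 weeks later, in AngII at week 5 and so past the stated duration of the pump. As no library of rats without CMG was analysed here, CMG and time cannot be told apart. In AngII this holds too for CMG and the end of the stated infusion. The comparisons ask how the egress genes differed after against before CMG in each model, and between the models before and after CMG. Between the models the week of the blood draw also differed, at 1 against 3 and 5 against 7. Pumps were implanted in the AngII rats alone. Model, week and pump implantation cannot be told apart.

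Sphingosine 1-phosphate (S1P) is a lipid signal that is abundant in blood and lymph and scarce inside lymphoid tissue. A lymphocyte that carries the receptor S1PR1 follows this gradient out of the tissue, and the receptor is withdrawn from the cell surface where S1P is abundant, as in blood, and upon activation, when CD69 binds it. The transcription factor KLF2 activates S1pr1 in resting T cells, FOXO1 maintains Klf2, Ccr7 and Il7r, and this program is typical of the naive and memory lymphocytes that recirculate.

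The libraries held 4149104 to 13205565 counts, of which 61.9% to 84.3% were on 2 hemoglobin genes. The second DOCA–HS after CMG library stood apart, with 651764 counts outside the hemoglobin genes against 2195735 to 4490083 in the others, and 2686 genes with at least 10 counts against 6097 to 8280. Its counts of the egress genes were 15 for S1pr1, 28 for S1pr4, 10 for S1pr5, 45 for Klf2, 9 for Ccr7, 4 for Il7r and 2 for Foxo1. The log2 fold changes of the 7 genes after against before CMG in DOCA–HS are therefore given with and without this library. Other values that include it are given without it only in part. Levels below are normalized CPM, the counts of a gene as a share of its library, scaled by the trimmed mean of M-values (TMM), which sets each library against the bulk of its genes. They were compared between libraries and not between genes, as they were not divided by gene length. In whole blood, fewer cells of a type and less RNA per cell cannot be told apart.

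S1pr1, the receptor that lymphocytes need to exit thymus and lymph nodes, was measured at 88.1 and 124.8 normalized CPM in the 2 AngII before CMG libraries and at 25.3 and 35.1 in the AngII after CMG libraries. In the DOCA–HS model it was at 65.4 and 33.1 before CMG and at 32.0 and 10.5 after CMG. The group means were 106.4 ± 26.0 in AngII before CMG, 49.3 ± 22.9 in DOCA–HS before CMG, 30.2 ± 6.96 in AngII after CMG and 21.3 ± 15.2 in DOCA–HS after CMG (SD, n = 2 each). In this order the AngII before CMG libraries stood above all 6 others, while each of the lower 3 groups overlapped the next. The order holds under TMM scaling, whose factors ran from 0.343 to 1.88 over the 8 libraries. As a plain share of total counts, the first DOCA–HS before CMG library was highest instead, with 1183 S1pr1 counts of 9631446. The AngII before CMG libraries held 1121 of 13205565 and 739 of 7628236. S1pr1 had the widest range of the 7 genes, its highest library being 11.8 times its lowest, against 1.48 times for S1pr4 and 2.97 times for Klf2.

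**Figure D1:**
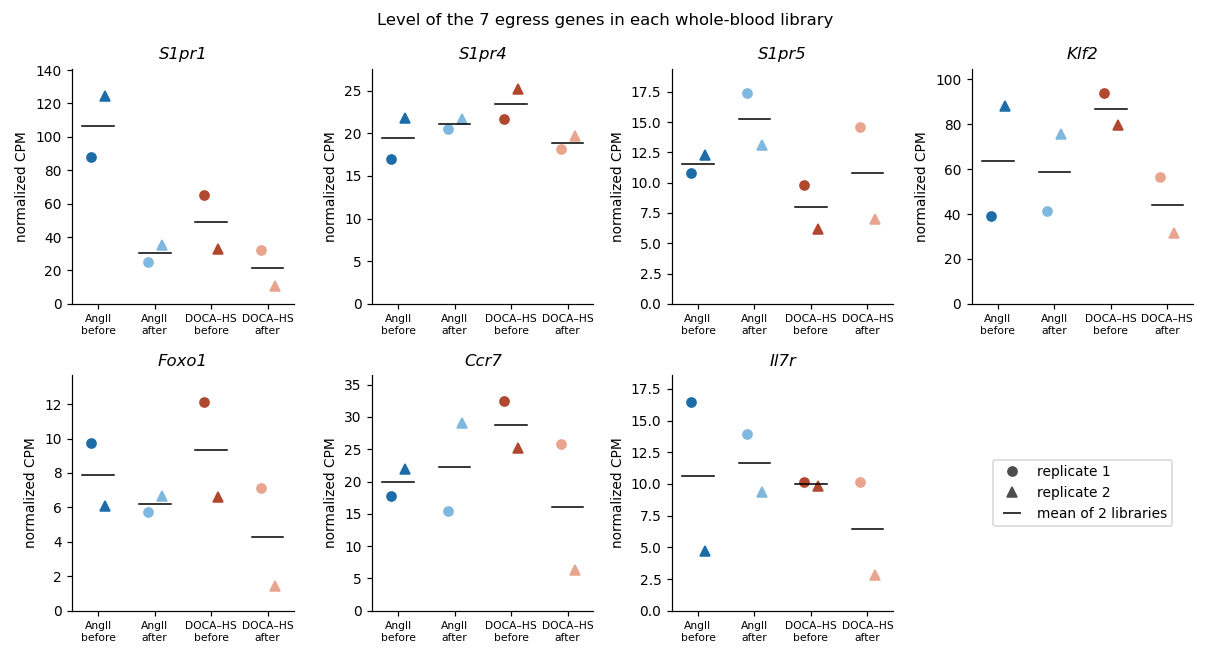
Normalized CPM (vertical axis of each panel, from 0) of the 7 egress genes in the 8 whole-blood libraries, with circles for replicate 1, triangles for replicate 2 and a line for the mean of the 2 libraries of a group. S1pr1 was above 88 in both AngII before CMG libraries and at 65.4 or below in the other 6, and S1pr1, Klf2, Foxo1, Ccr7 and Il7r had their lowest value in the second DOCA–HS after CMG library.

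Because KLF2 acts on S1pr1 through its promoter, the 250 bases before the annotated start of S1pr1 are shown beside those of S1pr4. S1pr4, a receptor of the same family, had the narrowest range of normalized CPM among the 7 genes, at 1.48 times. Of the 7 genes, 5 had a promoter in the RefSeq table (assembly GRCr8, which is not the rn6 assembly of the alignment), and Klf2 and Ccr7 had none. The capitals mark the KLF box, CACCC or on the other strand GGGTG, the core of the sites that KLF proteins bind. The S1pr1 window lies on the minus strand at chr2:206314071-206314320 and the S1pr4 window on the plus strand at chr7:8858278-8858527.
S1pr1: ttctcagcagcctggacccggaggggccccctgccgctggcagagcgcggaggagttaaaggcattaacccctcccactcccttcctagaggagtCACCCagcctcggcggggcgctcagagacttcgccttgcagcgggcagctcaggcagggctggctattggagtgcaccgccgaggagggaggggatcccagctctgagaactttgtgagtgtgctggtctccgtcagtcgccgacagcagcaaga
S1pr4: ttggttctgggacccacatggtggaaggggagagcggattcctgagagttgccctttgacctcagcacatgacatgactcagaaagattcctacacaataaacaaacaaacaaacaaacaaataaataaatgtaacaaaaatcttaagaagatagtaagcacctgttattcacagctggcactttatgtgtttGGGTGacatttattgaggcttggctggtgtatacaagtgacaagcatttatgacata
Each window held 1 KLF box, 155 bases before the start in S1pr1 and 57 bases before it in S1pr4, and the S1pr5 window held 1 at 144 bases, while those of Foxo1 and Il7r held 0. As 49.2% of 33360 promoter windows of this length hold the box on either strand, the match is no mark of these genes. The FOXO site GTAAACA, present in 3.21% of windows, and the MEF2 site, present in 2.97%, were found in 0 of the 5 windows.

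By normalized CPM, the other S1P receptors of the set varied less than S1pr1. S1pr4, which is expressed across leukocytes, was at 17.0 and 21.8 normalized CPM in AngII before CMG, 20.5 and 21.6 in AngII after CMG, 21.7 and 25.2 in DOCA–HS before CMG, and 18.1 and 19.7 in DOCA–HS after CMG. Its group means ran from 23.4 ± 2.42 in DOCA–HS before CMG through 21.1 ± 0.839 in AngII after CMG and 19.4 ± 3.35 in AngII before CMG to 18.9 ± 1.10 in DOCA–HS after CMG (SD, n = 2 each). The upper pair of these groups was separated by less than 0.1 normalized CPM, and the other neighbours overlapped. The log2 fold change of S1pr4 after CMG depended on the processing. Over 13 alternatives it ran from -0.03 to 0.54 in AngII and from -1.08 to 0.34 in DOCA–HS. S1pr5, the receptor by which natural killer cells leave bone marrow and lymph nodes, was at 10.8 and 12.3 in AngII before CMG, 17.4 and 13.1 in AngII after CMG, 9.79 and 6.16 in DOCA–HS before CMG, and 14.6 and 7.03 in DOCA–HS after CMG. Its means were 15.3 ± 3.07 in AngII after CMG, 11.6 ± 1.05 in AngII before CMG, 10.8 ± 5.35 in DOCA–HS after CMG and 7.97 ± 2.57 in DOCA–HS before CMG (SD, n = 2 each). For S1pr5 the AngII after CMG libraries stood above the AngII before CMG libraries, whereas both DOCA–HS groups overlapped each other.

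Klf2, the transcription factor of lymphocyte quiescence, was at 39.3 and 88.3 normalized CPM in AngII before CMG and at 41.2 and 75.9 in AngII after CMG, so that the 2 groups covered nearly the same range. In the DOCA–HS model Klf2 was at 93.9 and 79.8 before CMG and at 56.3 and 31.6 after CMG, without overlap. Its means were 86.9 ± 9.98 in DOCA–HS before CMG, 63.8 ± 34.7 in AngII before CMG, 58.6 ± 24.5 in AngII after CMG and 44.0 ± 17.4 in DOCA–HS after CMG (SD, n = 2 each), and each group overlapped the next. Foxo1, the factor upstream of Klf2 and Il7r that is inactivated by growth factor signals, was at 9.74 and 6.08 in AngII before CMG, 5.75 and 6.65 in AngII after CMG, 12.1 and 6.58 in DOCA–HS before CMG, and 7.14 and 1.41 in DOCA–HS after CMG. The means of Foxo1 were 9.35 ± 3.91, 7.91 ± 2.59, 6.20 ± 0.633 and 4.27 ± 4.06 in DOCA–HS before, AngII before, AngII after and DOCA–HS after CMG (SD, n = 2 each), again with an overlap at each step.

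Ccr7, the chemokine receptor that brings naive T cells and dendritic cells into lymph nodes, was at 17.8 and 21.9 normalized CPM in AngII before CMG, 15.5 and 29.0 in AngII after CMG, 32.4 and 25.2 in DOCA–HS before CMG, and 25.8 and 6.33 in DOCA–HS after CMG. Both DOCA–HS before CMG libraries stood above both AngII before CMG libraries, and the neighbours in the order of the means overlapped. These means were 28.8 ± 5.13 in DOCA–HS before CMG, 22.3 ± 9.57 in AngII after CMG, 19.9 ± 2.91 in AngII before CMG and 16.1 ± 13.8 in DOCA–HS after CMG (SD, n = 2 each). Il7r, the receptor chain for the survival cytokine IL-7, was at 16.5 and 4.73 in AngII before CMG, 13.9 and 9.38 in AngII after CMG, 10.1 and 9.87 in DOCA–HS before CMG, and 10.1 and 2.81 in DOCA–HS after CMG. No pair of neighbouring groups was separated for Il7r, whose means were 11.6 ± 3.20, 10.6 ± 8.32, 9.998 ± 0.178 and 6.47 ± 5.18 in AngII after, AngII before, DOCA–HS before and DOCA–HS after CMG (SD, n = 2 each). The AngII before CMG group alone held both the highest and, outside the second DOCA–HS after CMG library, the lowest Il7r value.

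After against before CMG in the AngII model, S1pr1 was 3.46-fold lower, a log2 fold change of -1.79 ± 0.36 (SE), and both after CMG libraries lay below both before CMG libraries. It was the single gene of the 7 past the criterion of the study, a log2 fold change above 1.5 or below -1.5 with an unadjusted p of 0.05 or less, which 1.24% of the 7201 genes tested passed and 0.333% passed in the lower direction. With Benjamini-Hochberg adjustment over all genes tested in edgeR, S1pr1 had an adjusted p = 0.590, and 0 of 7201 genes were under 0.05, against 479 (6.65%) with an unadjusted p of 0.05 or less and 3 at an adjusted p-value under 0.05 with DESeq2. One of these 3 was S1pr1, with a log2 fold change of -1.82 and an adjusted p = 0.033 by DESeq2. The other 6 genes lay between -0.35 ± 0.34 for Foxo1 and 0.42 ± 0.31 for S1pr5 (SE), with Klf2 at -0.09 ± 0.46, Il7r at 0.10 ± 0.54, S1pr4 at 0.15 ± 0.30 and Ccr7 at 0.20 ± 0.36. Of these, S1pr5 did not overlap between the groups and was higher after CMG, as were 21.3% of all genes tested, and S1pr1 was lower without overlap, as were 18.6%. The median log2 fold change was 0.10 over the 7 genes and -0.01 over all genes tested.

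The scaling and the single library mattered unequally for these genes. S1pr1 stayed negative under the 13 alternatives run and within -2.05 and -1.58 with any 1 library left out, but was at -1.35 with scaling by total counts, short of the criterion, where the median of all genes was at 0.36. Relative to that median it was at -1.71. Klf2 and Foxo1 changed sign with the scaling, to 0.41 and 0.02 under total counts, and Klf2 ran from -0.60 to 0.54 when 1 library was left out. Il7r ran from -0.54 without the second AngII before CMG library to 1.31 without the first, and Ccr7 was at -0.33 without the second AngII after CMG library.

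**Figure D2:**
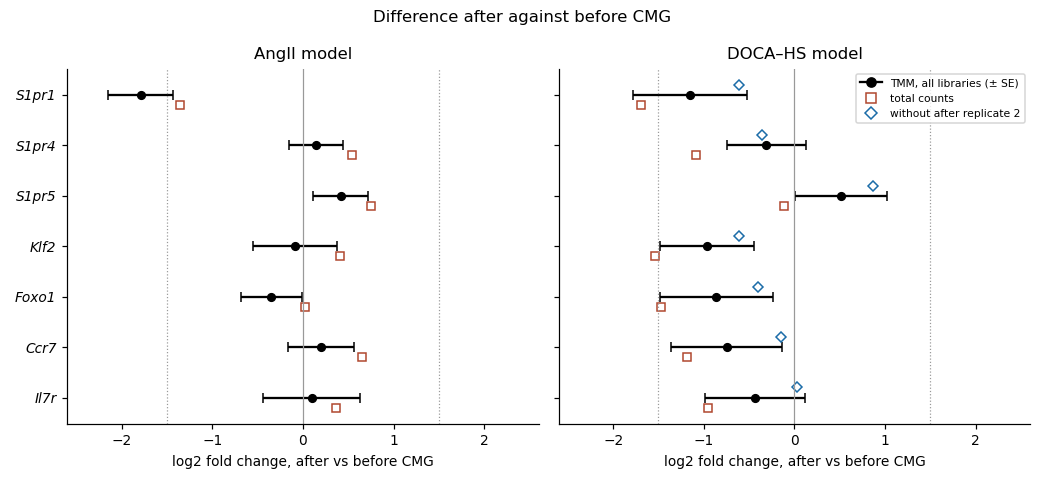
Log2 fold change after against before CMG (horizontal axis) of the 7 egress genes in the AngII model (left) and the DOCA–HS model (right), with filled circles and SE bars for TMM scaling of the 4 libraries of a model, squares for scaling by total counts, and diamonds for the DOCA–HS fit without the second after CMG library. Dotted lines mark -1.5 and 1.5. S1pr1 in the AngII model, at -1.79, is the only filled circle beyond them, and all 7 diamonds lie between -0.61 and 0.86.

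In the DOCA–HS model, 0 of the 7 genes passed the criterion with edgeR and 0 with DESeq2, against 2.05% of the 7720 genes tested, and 0 had an unadjusted p of 0.05 or less with either tool, against 3.17% with edgeR. S1pr1 was at -1.15 ± 0.63, Klf2 at -0.97 ± 0.52, Foxo1 at -0.86 ± 0.63, Ccr7 at -0.75 ± 0.62, Il7r at -0.44 ± 0.55, S1pr4 at -0.31 ± 0.44 and S1pr5 at 0.52 ± 0.51 on the log2 scale (SE). S1pr1, Klf2 and S1pr4 were lower after CMG without overlap between the groups, as were 21.1% of the genes tested, and for S1pr1 the separation was between 32.0 and 33.1 normalized CPM. The median was -0.75 over the 7 genes and -0.04 over all genes tested. Without the second after CMG library the values were -0.61 for S1pr1, -0.61 for Klf2, -0.40 for Foxo1, -0.36 for S1pr4, -0.15 for Ccr7, 0.03 for Il7r and 0.86 for S1pr5. With that library as the only one after CMG, S1pr1 (-2.23), Foxo1 (-2.75), Ccr7 (-2.19) and Il7r (-1.83) were past the criterion, as were 21.1% of the 8126 genes tested in that fit, so that this count is no result about the 7 genes. S1pr1 was also at -0.60 without the first before CMG library. With total counts the median of all genes was at -0.76, S1pr1 was at -1.69, Klf2 at -1.54 and S1pr5 changed sign to -0.11.

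Between the models before CMG, S1pr1 was lower in DOCA–HS than in AngII by a log2 difference of -1.11 ± 0.55 (SE), short of the criterion, which 0 of the 7 genes passed with edgeR or DESeq2 against 0.838% of 7994 genes. The unadjusted p was 0.05 or less for 0 of the 7 genes with edgeR, against 3.38% of all genes, and for S1pr1 with DESeq2. S1pr5, at -0.52 ± 0.42, and S1pr1 were lower in both DOCA–HS libraries than in both AngII libraries, as were 21.2% of genes, and Ccr7, at 0.54 ± 0.55, was higher, as were 24.3%. Klf2 was at 0.45 ± 0.52, S1pr4 at 0.28 ± 0.35, Foxo1 at 0.24 ± 0.50 and Il7r at -0.11 ± 0.58. This comparison and that of after with before CMG in the AngII model share the 2 AngII before CMG libraries, in which S1pr1 was highest by normalized CPM. The values are to be read side by side. With total counts, where the median of all genes was at 0.86, S1pr1 was at -0.17, which is -1.03 relative to that median, and S1pr5 and Il7r changed sign to 0.35 and 0.63.

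After CMG, the 7 genes lay between -0.63 ± 0.61 for Il7r and -0.16 ± 0.36 for S1pr4 in DOCA–HS against AngII, with S1pr1 at -0.44 ± 0.55 and Klf2 at -0.40 ± 0.52 (SE). With edgeR or DESeq2, 0 of the 7 passed the criterion, against 1.4% of 7994 genes, and 0 had an unadjusted p of 0.05 or less, against 2.79%. S1pr4 alone did not overlap between the groups, being lower in DOCA–HS like 15.9% of genes. Without the second DOCA–HS after CMG library, S1pr1 was at 0.08, Klf2 at -0.06, Foxo1 at 0.19 and Ccr7 at 0.20. The change after CMG differed between the models by 0.67 ± 0.77 for S1pr1, -0.85 ± 0.73 for Klf2 and -0.91 ± 0.78 for Ccr7 (SE, DOCA–HS minus AngII), each about as large as its error. With total counts that of S1pr1 changed sign to -0.33, where the median of all genes was at -1.21, and without the second DOCA–HS after CMG library the 3 values were 1.19, -0.50 and -0.33. For this difference too 0 of the 7 genes passed the criterion, against 3.16% of genes, and 0 had an unadjusted p of 0.05 or less in edgeR, against 3.74%, with an adjusted p = 0.884 for S1pr1 in edgeR.

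Ratios of counts within 1 library do not depend on the scaling. There were 2.24 and 1.41 S1pr1 counts per Klf2 count in AngII before CMG and 0.612 and 0.463 in AngII after CMG. In DOCA–HS the ratio was 0.697 and 0.415 before CMG and 0.569 and 0.333 after CMG, so that the AngII before CMG libraries stood above the other 6, which overlapped. The log2 change of the mean log ratio after CMG was -1.74 in AngII and -0.30 in DOCA–HS. In DOCA–HS the first after CMG library, at 0.569, lay between the 2 before CMG libraries, so the -0.30 rests on the shallow second library. Per S1pr4 count, S1pr1 was at 5.17 and 5.73 in AngII before CMG and at 1.23 and 1.62 in AngII after CMG, against 3.01 and 1.32 in DOCA–HS before CMG and 1.77 and 0.536 in DOCA–HS after CMG. The same order of groups held per S1pr4 as per normalized CPM, with AngII before CMG alone above the rest.

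To set S1pr1 against lymphocyte transcripts in general, it was divided by the summed counts of T cell markers (18 genes, among them Cd3e) and B cell markers (15 genes). Per 100 T cell marker counts, S1pr1 was at 25.0 and 31.9 in AngII before CMG, 9.93 and 10.7 in AngII after CMG, 16.4 and 8.77 in DOCA–HS before CMG, and 10.8 and 4.10 in DOCA–HS after CMG. Per 100 B cell marker counts it was at 91.4 and 92.0 in AngII before CMG and between 19.0 and 31.5 in the other 6 libraries. Relative to both lists together, the log2 change of S1pr1 after CMG was -1.62 in AngII and -0.69 in DOCA–HS, that of Klf2 0.12 and -0.39, and that of Ccr7 0.29 and -0.51. S1pr1 was thus lower in AngII after CMG also within each library's lymphocyte marker counts, while S1pr5 was at 0.58 and 1.03 by the same measure. The DOCA–HS values include the shallow second after CMG library. Per 100 T and B cell marker counts, the first DOCA–HS after CMG library was at 7.65 for S1pr1, against 10.8 and 6.25 before CMG. This library was at 6.17 for Ccr7, against 5.34 and 4.75, and at 13.4 for Klf2, against 15.5 and 15.1. For S1pr5 it was at 3.49, against 1.61 and 1.16.

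**Figure D3:**
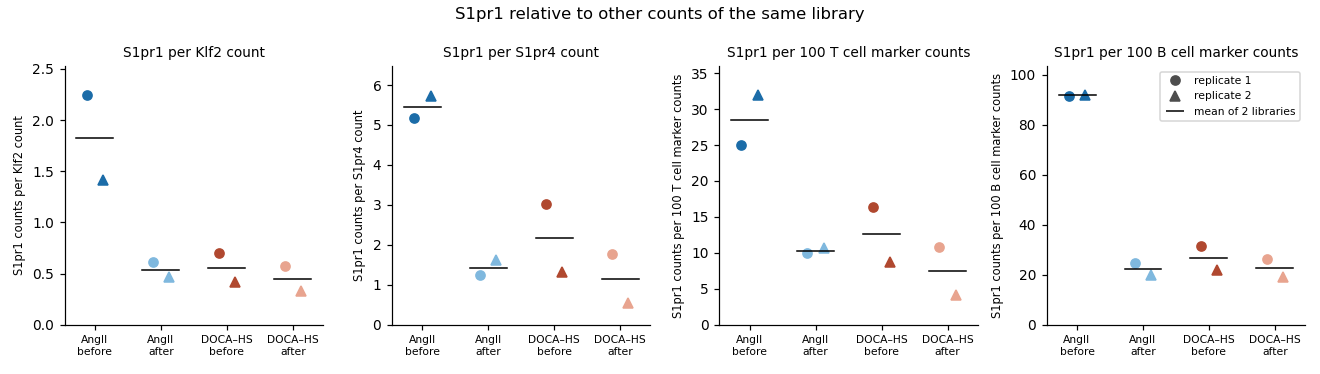
S1pr1 counts per Klf2 count, per S1pr4 count, per 100 T cell marker counts and per 100 B cell marker counts (vertical axes, from 0) in each of the 8 libraries, with circles for replicate 1, triangles for replicate 2 and a line for the mean of the 2 libraries. In each panel the 2 AngII before CMG libraries are the highest, at 1.41 or above per Klf2 count and at 91.4 and 92.0 per 100 B cell marker counts.

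The other genes around S1P, KLF2, FOXO1, IL-7 and homing were read from 7 lists, which hold 139 symbols and of which 128 were present. After against before CMG in AngII, 101 were tested, and 1 rose and 3 fell by the criterion, which 1.24% of all genes passed, and 11 had an unadjusted p of 0.05 or less in edgeR, against 6.65% of all genes, with a median log2 fold change of -0.02 against -0.01 over all genes. In the DOCA–HS model 104 were tested and 0 passed, against 2.05% of all genes, with 1 at an unadjusted p of 0.05 or less, against 3.17%, and a median of -0.20 against -0.04. Without the shallow second DOCA–HS after CMG library the median was -0.04 against -0.02 over all genes. Without the second DOCA–HS after CMG library 1 of 112 rose (Map3k2), and without the first, so that the shallow library stood alone, 3 of 109 rose and 25 fell, where 21.1% of all genes passed. Between the models before CMG 106 were tested, of which 2 were higher and 3 lower in DOCA–HS by the criterion, against 0.838% of all genes, and 12 had an unadjusted p of 0.05 or less, against 3.38%, with a median of 0.05 against 0.06. After CMG 1 was higher and 0 lower, against 1.4%, and 3 had an unadjusted p of 0.05 or less, against 2.79%, with a median of -0.18 against -0.04. Without the shallow library this median was 0.004 against -0.02 over all genes. No gene of these lists had an adjusted p-value under 0.05 in edgeR in any of the comparisons with TMM scaling, the low-count filter and all libraries, the lowest being 0.547 for Socs1 in the AngII model, while with total counts Socs3 had an adjusted p of 0.012 there.

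Among 16 tested genes of the other S1P receptors and receptor signalling, 0 rose and 1 fell after CMG in the AngII model, with a median of -0.04. Of all genes 1.24% passed the criterion there. The gene that fell was Cd69, the activation antigen that takes S1PR1 off the cell surface, at 23.6 and 21.9 normalized CPM before and 5.44 and 9.16 after CMG, a log2 fold change of -1.60 ± 0.34 (SE, edgeR adjusted p = 0.628). Cd69 was at -1.35 without the first AngII after CMG library and at -1.18 with total counts, both short of the criterion. In DOCA–HS it was at -1.09 ± 0.54 (SE), also short of it, on counts of 217 and 97 before and 90 and 3 after CMG. The 3 counts are those of the shallow second after CMG library. Of the receptors outside the set, S1pr2 had 1 to 15 counts per library and S1pr3 0 to 1, too few for a comparison.

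Of the genes of S1P synthesis, export and breakdown, 9 were tested after against before CMG in each model, and 0 rose or fell in either, with medians of 0.09 in AngII and 0.07 in DOCA–HS. Sphk1, a kinase that makes S1P, was at 6.83 and 6.08 normalized CPM in AngII before CMG, 5.60 and 3.25 in AngII after CMG, 2.10 and 3.50 in DOCA–HS before CMG, and 3.92 and 4.22 in DOCA–HS after CMG. The log2 fold change of Sphk1 after CMG was -0.57 ± 0.35 in AngII and 0.54 ± 0.49 in DOCA–HS, without overlap in either. Of all genes tested, 18.6% were lower without overlap in AngII and 14.7% were higher without overlap in DOCA–HS. The shallow second DOCA–HS after CMG library held 6 Sphk1 counts. The difference between the models was 1.13 ± 0.60 (SE, edgeR adjusted p = 0.881). Sphk2, the other kinase, was at -0.05 ± 0.32 and -0.18 ± 0.43, and Sgpl1, the lyase that breaks S1P down, at 0.98 ± 0.43 and -0.14 ± 0.58. Acer2, a ceramidase of the Golgi, was higher in DOCA–HS than in AngII after CMG by the criterion, at 2.39 ± 0.88 (SE, edgeR adjusted p = 1.00), on counts of 96 and 29 against 30 and 7, and was short of the criterion at 1.37 without the second AngII after CMG library, at 1.68 without the shallow second DOCA–HS library and at 1.81 with total counts, but at 4.55 without the first AngII after CMG library. Spns2, an S1P exporter of endothelium, had 0 to 7 counts, and Mfsd2b, the exporter of red cells and platelets, was not analysed here.

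Of 16 tested genes of other KLF and FOXO factors and naive lymphocyte regulators, 0 passed in the AngII model, with a median of -0.22, and 0 of 17 in DOCA–HS, with a median of -0.02. Klf3, a repressor of the same family as Klf2, was at -0.24 ± 0.36 in AngII and -0.33 ± 0.46 in DOCA–HS. Klf6 was at 38.8 and 46.9 normalized CPM in AngII before CMG and 20.3 and 24.6 after CMG, a log2 fold change of -0.91 ± 0.31 that was short of the criterion, and at 0.77 ± 0.66 in DOCA–HS, where its second after CMG library alone was high at 76.6 against 19.2. Foxo3, the paralog of Foxo1, was at -0.58 ± 0.45 and -0.02 ± 0.43. Lef1, a factor of naive T cells, was at -0.11 ± 0.34 and -0.99 ± 0.49, and Tcf7 was not analysed here.

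KLF2 and FOXO1 upstream signalling, 19 tested genes of the MEK5, MEF2, PI3K and AKT routes, had 0 past the criterion in AngII and 0 in DOCA–HS, with medians of 0.07 and -0.12. FOXO target genes had 0 of 15 past it in either model, with medians of -0.35 and -0.35. In this list Cdkn1a, a cell cycle inhibitor, was lower in DOCA–HS than in AngII before CMG by the criterion, at -1.66 ± 0.70 (SE, edgeR adjusted p = 0.992), and was short of the criterion at -1.20 without the first AngII before CMG library, at -0.89 with total counts, and without either DOCA–HS before CMG library (-1.55 and -1.79).

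**Figure D4:**
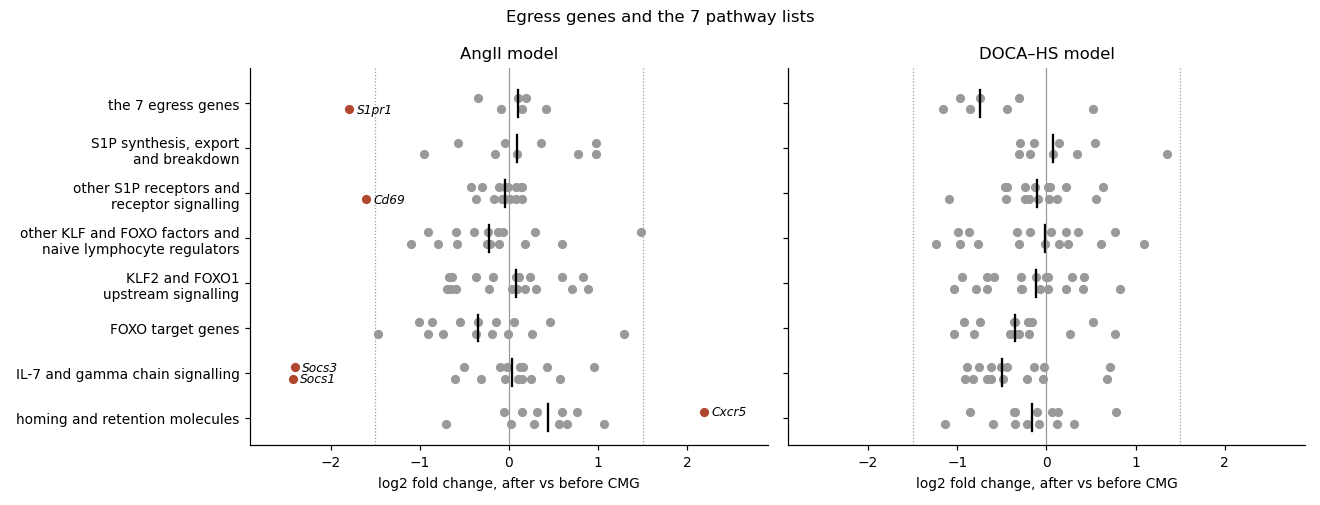
Log2 fold change after against before CMG (horizontal axis) of each tested gene of the 7 egress genes and of the 7 pathway lists (rows), in the AngII model (left) and the DOCA–HS model (right). Vertical bars are the medians, dotted lines mark -1.5 and 1.5, and labelled points passed the criterion, which were S1pr1, Cd69, Socs1, Socs3 and Cxcr5 in AngII and 0 genes in DOCA–HS.

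IL-7 and gamma chain signalling, 16 tested genes, had 0 that rose and 2 that fell in the AngII model, with a median of 0.04. Of all genes 1.24% passed the criterion there. In DOCA–HS 0 passed, against 2.05% of all genes, with a median of -0.50 against -0.04 over all genes. That median includes the shallow second DOCA–HS after CMG library. Both genes that fell in AngII were inhibitors of cytokine signalling. Socs1 was at 4.95 and 4.73 normalized CPM in AngII before CMG and between 0.61 and 1.22 in the other 6 libraries, a log2 fold change of -2.42 ± 0.40 after CMG (SE, edgeR adjusted p = 0.547) that passed the criterion under every alternative that tested it. Socs3 was at 61.2 and 20.3 in AngII before CMG and at 10.2 and 5.39 after CMG, a log2 fold change of -2.40 ± 0.58 (SE, edgeR adjusted p = 0.628) that was at -1.38 and short of the criterion without the first AngII before CMG library. Before CMG both genes were also lower in DOCA–HS than in AngII, Socs1 at -2.01 ± 0.41 (-1.21 with total counts, short of the criterion) and Socs3 at -2.72 ± 0.65 (-1.71 without the first AngII before CMG library), and this comparison shares the AngII before CMG libraries. The receptor partner Il2rg, the common gamma chain, was at 0.16 ± 0.30 in AngII and -0.66 ± 0.57 in DOCA–HS, and its kinase Jak3 at -0.04 ± 0.32 and -0.22 ± 0.45. In DOCA–HS, Il2rg was at 43.7 and 39.2 normalized CPM before CMG and at 37.9 and 12.7 after CMG, the last on 18 counts.

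Of 12 tested homing and retention molecules, 1 rose and 0 fell in the AngII model, with a median of 0.44. In DOCA–HS 0 of 14 passed, with a median of -0.16. Of all genes, 1.24% passed in AngII and 2.05% in DOCA–HS. Cxcr5, the receptor that guides B cells into follicles, rose on counts of 7 and 2 before and 8 and 39 after CMG, a log2 fold change of 2.19 ± 0.65 (SE, edgeR adjusted p = 0.628) that rests on the second after CMG library, without which, or with a minimum of 10 counts in each library, it was not tested. Before CMG Cxcr5 (1.85 ± 0.75) and Ccr6 (2.09 ± 0.81), a receptor of B cells and of T helper cells, were higher in DOCA–HS than in AngII by the criterion, and their changes after CMG differed between the models, at -2.54 ± 1.02 and -2.56 ± 1.10 (SE, edgeR adjusted p = 0.881 for each). Before CMG, Cxcr5 was short of the criterion without either AngII before CMG library (2.31 and 1.63) or the first DOCA–HS before CMG library (1.43), and Ccr6 without the first AngII before CMG library or either DOCA–HS before CMG library (2.13 and 2.01). Without the second AngII after CMG library the differences were -1.76 for Cxcr5 and -0.88 for Ccr6, both short of the criterion. That of Cxcr5 was also short of it with total counts and without either AngII before CMG library or the first DOCA–HS before CMG library. That of Ccr6 was also short of it with DESeq2, and without the first AngII before CMG library or any single DOCA–HS library. Ccr6 had counts of 3 and 3 in AngII before CMG and 3 and 32 in AngII after CMG. Its counts in DOCA–HS were 26 and 14 before and 16 and 1 after CMG. Cxcr4, which retains cells in bone marrow, was at 65.7 and 113.1 normalized CPM in AngII before CMG and between 45.1 and 54.5 in the other 6 libraries, with a log2 fold change of -0.70 ± 0.36 after CMG in AngII and 0.06 ± 0.46 in DOCA–HS.

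Markers of the blood cell types moved beside these genes, and their part in the values above was not tested. The summed normalized CPM of the T cell markers, of which 18 of 18 were detected, was 352.8 to 391.2 in AngII before CMG, 254.3 to 329.5 in AngII after CMG, 377.6 to 399.4 in DOCA–HS before CMG and 257.3 to 296.1 in DOCA–HS after CMG, lower after CMG in both models without overlap. The B cell markers, 14 of 15 detected, were at 96.4 to 135.6, 103.1 to 178.2, 152.0 to 207.5 and 55.5 to 122.5 in the same order of groups. The cytotoxic lymphocyte markers, 15 of 15 detected, were at 91.2 to 98.8, 135.7 to 185.4, 75.3 to 97.4 and 118.0 to 165.9, higher after CMG in both models, as S1pr5 was in the AngII model. The defining T cell gene Cd3e (20 to 635 counts) was present in all 8 libraries. S1pr1 and Klf2 are also expressed in endothelium, whose markers, 15 of 16 detected, summed to 30.4 to 52.5, 27.4 to 60.7, 34.1 to 53.7 and 63.6 to 163.8. Of these markers 4 were detected in all 8 libraries, and the sum of 163.8 is that of the shallow second DOCA–HS after CMG library. Of the defining endothelial genes, Cdh5 was at 0 in 6 of the 8 libraries and at most at 4 counts, and Kdr was at 0 to 19 counts. Of 5 endothelial markers tested in AngII, 2 had a log2 fold change above 0, with a median of -0.03. By the criterion 1 rose, against 1.24% of all genes passing, namely Kdr at 2.43 on counts of 5 and 0 before and 9 and 19 after CMG. Of 4 tested in DOCA–HS, 2 were above 0, with a median of -0.08, and 1 rose, Vwf at 1.92, against 2.05% of all genes passing. The lowest edgeR adjusted p of these endothelial markers was 0.663 in AngII and 0.997 in DOCA–HS. In the same DOCA–HS comparison 8 of 8 tested platelet markers were above 0, with a median of 1.34, and 3 rose by the criterion (Pf4, Treml1 and Nrgn). Whether the Vwf counts came from endothelium was not tested.

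The genes whose level followed S1pr1 most closely over the 8 libraries, among 2624 genes with at least 10 counts in each, were Hnrnpa1, Arf6, Vezf1, Eef1a1 and Eif3m, with Pearson correlations of log2 CPM of 0.958, 0.952, 0.947, 0.944 and 0.939. Those nearest to Klf2 were Mgat1, Shisa5, RT1-Da, Prpf6 and LOC100910973, at 0.977, 0.975, 0.967, 0.954 and 0.952. By the same measure Klf2 and S1pr1 were at 0.563. The libraries share depth and blood cell makeup, so these values describe likeness in the 8 libraries alone. After CMG in AngII the log2 fold change was -0.59 for Hnrnpa1, an RNA-binding protein, and -0.43 for Eef1a1, a translation factor, beside -1.79 for S1pr1.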

How the data were processed

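RNA of 8 whole-blood libraries was sequenced by the authors (directional NEBNext Ultra II kit, single-end reads), aligned to rn6 with HISAT2 and counted by strand on genes with HTSeq. The deposited counts are whole numbers without normalization. The authors state that hemoglobin annotations were removed before counting, yet Hbb and LOC100134871 hold most counts and were taken here as hemoglobin genes. The deposited comparison tables of fold changes and p-values were not used.

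Counts were tested with edgeR 4.0.16 in R 4.3.3 (filterByExpr, TMM, quasi-likelihood test), after against before CMG within the 4 libraries of a model, and between models over all 8 libraries with 4 group means. The criterion of the study, a log2 fold change beyond 1.5 and p of at most 0.05, was applied, with Benjamini-Hochberg adjusted p-values over all genes tested. For log2 CPM the prior count was 2. The 7 genes and the gene lists were chosen with earlier results of these data known. Beyond the 7, genes were named if a list gene passed the criterion with a mean of at least 10 counts, or if fixed by name. The marker lists were T cell, B cell, cytotoxic lymphocyte, monocyte, neutrophil, erythroid, platelet, endothelial and heart muscle genes. The code was tested on simulated counts. Single values of 2 list genes are not reported here.

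Same-numbered libraries deviated together (correlation 0.610 in AngII, 0.345 in DOCA–HS over 2624 genes), but no source says that a number marks a rat, so libraries were taken as unpaired. The methods describe repeated blood sampling of the rats while the labels name cardiac puncture for all libraries, so before and after libraries may share animals, in which case the unpaired SE and p-values do not describe the change within a rat. Libraries of 1 group differed beyond counting error (chi-square per degree of freedom 15.4 to 94.6). The sources do not say whether they came from separate rats, so p-values measure only the spread between these libraries. Alternatives were DESeq2 1.42.0, its size factors, total counts with and without hemoglobin genes, no low-count filter, a minimum of 10 counts in each library, the replicate block, other sets of libraries in the fit, each library left out and, added after seeing the data, the ratio to T and B cell marker counts.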

Additional observations from a re-analysis of the deposited data

How the results depend on the processing

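Of 71 alternative counts of the 7 genes past the criterion, 66 were within 1.5 times the first count and 5 were not, and no value past the criterion changed sign. After against before CMG in AngII, the count of 1 (S1pr1) became 0 with total counts and 0 with total counts outside hemoglobin genes, where S1pr1 was at -1.35 in both and the median of all genes at 0.36 and 0.38. With 1 library left out it ranged from 1 to 1. In DOCA–HS the count of 0 ranged from 0 to 4, between the models after CMG from 0 to 3 and for the difference between the models from 0 to 2, each time with the first DOCA–HS after CMG library left out, so that the shallow second library stood alone, where 21.1%, 18.1% and 23.2% of all genes passed. Where a group keeps 1 library, it is assumed to vary like the others. Before CMG the count between models was 0 throughout. The edgeR adjusted p of S1pr1 in AngII was between 0.003 and 0.999 over its alternatives. The replicate block gave 1 gene (S1pr1, -1.79, adjusted p = 0.003) in AngII and 0 in DOCA–HS, and over all genes 105 and 141 past the criterion, with 165 at an adjusted p under 0.05 in AngII, among them Cd69 (7.2e-05), Socs1 (8.6e-06) and Socs3 (1.6e-07), while the difference between the models in Ccr6 (-2.19) was short of the criterion, but the numbers are not known to pair the libraries. Over all genes, those past the criterion in AngII were 89, of which 73.0% were higher, against 222 (94.6%) with total counts, 201 without a low-count filter and 22 with a minimum of 10 counts in each library, and in DOCA–HS 158 (87.3% higher) against 9 (0 higher), 268 and 32. Without the first AngII after CMG library they were 403, of which 24.3% were higher, without the first DOCA–HS after CMG library 1712 (35.4%) and without the first DOCA–HS before CMG library 28 (92.9%). The last filter dropped Ccr7, Foxo1 and Il7r from every comparison that holds DOCA–HS after CMG libraries. Depth limits every value of the second DOCA–HS after CMG library.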

Other observations

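The markers not described above give the setting of these libraries. Summed normalized CPM of the platelet markers, 9 of 10 detected, was 324.0 to 1196 in AngII before CMG, 105.3 to 1070 in AngII after CMG, 420.4 to 671.8 in DOCA–HS before CMG and 1311 to 2521 in DOCA–HS after CMG. The monocyte markers, 12 of 13 detected, were at 429.0 to 442.0, 547.0 to 547.4, 469.1 to 714.5 and 411.2 to 669.9 in the same order. The neutrophil markers, 14 of 14 detected, were at 259.2 to 277.5, 240.3 to 267.9, 143.4 to 456.0 and 219.0 to 505.4, and their defining gene S100a8 had 212 to 803 counts. The erythroid markers, 15 of 15 detected, summed to 1947850 normalized CPM in the second DOCA–HS after CMG library and to 242287 to 650047 in the other 7, and their defining gene Alas2 had 42493 to 199514 counts. Of the heart muscle markers, 3 of 12 were detected and Myh6 was at 0 in all 8 libraries.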
